A study of Mus musculus with 48 samples.

Results

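The 10 transcription factor genes of the hypothalamus and basal forebrain described here were followed through 48 single-colour expression arrays of the frontal cortex and hypothalamus of 24 mice. The genes were Nr0b1, Nr5a1, Fezf1, Six6, Six3, Sim1, Otp, Lhx8, Nkx2-1 and Rax, and their probes were taken by RefSeq accession. The set was chosen by measured values, the hypothalamus signals of Nr0b1, Six6 and Lhx8 in Per3 5/5 against the other mice, so the Per3 5/5 hypothalamus values below describe that choice and carry no test. Of the 10 genes, 9 had a probe, giving 10 member probes of 41174 on the array, since Lhx8 had 2. No probe was matched to Rax, which was not analysed here.

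The study asked how a repeat polymorphism of human PER3 bears on the response to sleep loss. The knock-in (KI) mice carried human PER3 exon 18 in place of the mouse exon on both chromosomes, with 5 repeats in Per3 5/5 mice (labelled Boxhill) and 4 repeats in Per3 4/4 mice (labelled Coach), and the third group was wild-type (WT). All lines were on C57BL/6, from Bruce4 embryonic stem cells, and KI and WT animals descended from the same conditional transgenic mice, whose cassette was removed with a ubiquitous Cre that was then bred out. Each genotype had 8 mice, both tissue blocks of a mouse were arrayed, and every mouse had undergone 12 h of sleep deprivation (SD), so no rested animals were available for comparison. The mice were adults, deprived in sessions of mixed genotype, and the sex of the arrayed animals is not given in the sources used here.

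These proteins lay out the ventral forebrain in the embryo, and many stay on in subsets of adult neurons. Nr5a1 (steroidogenic factor 1) and Fezf1 mark the ventromedial nucleus, and Nr0b1 (DAX-1) is an orphan nuclear receptor that represses transcription driven by Nr5a1. Six3 and Six6 are sine oculis-type homeodomain factors of the eye, hypothalamus and pituitary, and Six6 is needed to form the suprachiasmatic nucleus, the seat of the circadian clock. Sim1 and Otp specify the neurosecretory neurons of the paraventricular and supraoptic nuclei, Nkx2-1 patterns the ventral hypothalamus and the medial ganglionic eminence, Lhx8 specifies cholinergic neurons of the basal forebrain, and Rax acts in the retina and hypothalamus.

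The 250 bases upstream of the start of the 3 genes that led to the choice of the set are printed here, 5′ to 3′ on the strand of the gene, from RefSeq (build GRCm38.p6), because the set was chosen on these genes. The windows are chrX:86191525-86191774 (+ strand) for Nr0b1, chr12:72939632-72939881 (+ strand) for Six6 and chr3:154330561-154330810 (- strand) for Lhx8. Capitals mark a nuclear receptor half-site.
Nr0b1: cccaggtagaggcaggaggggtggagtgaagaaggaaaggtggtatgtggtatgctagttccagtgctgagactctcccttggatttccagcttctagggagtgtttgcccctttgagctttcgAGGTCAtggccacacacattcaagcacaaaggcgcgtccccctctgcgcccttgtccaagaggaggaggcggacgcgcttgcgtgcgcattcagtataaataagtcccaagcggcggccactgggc
Six6: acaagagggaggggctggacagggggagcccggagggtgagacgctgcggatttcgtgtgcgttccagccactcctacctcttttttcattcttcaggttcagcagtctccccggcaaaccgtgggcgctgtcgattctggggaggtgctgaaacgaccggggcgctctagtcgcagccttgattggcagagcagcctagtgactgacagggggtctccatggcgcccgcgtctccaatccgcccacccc
Lhx8: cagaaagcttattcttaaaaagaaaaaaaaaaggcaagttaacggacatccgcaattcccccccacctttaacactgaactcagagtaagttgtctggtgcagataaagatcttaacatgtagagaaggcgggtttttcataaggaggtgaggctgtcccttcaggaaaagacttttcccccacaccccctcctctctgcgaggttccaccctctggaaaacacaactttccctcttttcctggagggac

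A window was found for 8 of the 10 genes, with none for Nr5a1 or Rax. Both strands of each were searched for the clock E-box CACGTG, the D-box (TTATGTAA or TTACGTAA), the homeodomain core TAATTA and the nuclear receptor half-site AGGTCA, motifs that do not overlap one another. The half-site occurred in 1 member, Nr0b1, where it begins 126 bases before the start, and in 14% of all 32851 promoters of that length. The E-box (6.02% of promoters), TAATTA (4.84%) and the D-box (0.931%) occurred in none of the 8 windows.

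Levels are log2 processed signals relative to the 75th percentile of the array, so that 0 is the signal of the probe at that percentile and each unit is a doubling. They are compared between arrays for 1 probe at a time. Mice are named by the replicate number that the labels give within a genotype. To be tested in a tissue, a probe needed the scanner software's call of well above background on 6 or more of the 8 mice of some genotype, which held for 3 member probes in cortex (Lhx8, Nr5a1 and Six3) and for 9 in hypothalamus, all but Otp. Scanning took 3 days. The first was given to 8 KI mice, 4 of each KI genotype. On day 2, 5 WT and 3 Per3 4/4 mice were read, and on day 3 the remaining 3 WT, 4 Per3 5/5 and 1 Per3 4/4 mice. Per3 4/4 and WT mice shared only slides 4 and 6, with 1 mouse of each genotype per slide. No slide held both Per3 5/5 and WT mice.

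The tissue blocks carried the main markers of their labels, with exceptions. The summed linear level (75th percentile = 1) of 4 lateral and posterior hypothalamic genes, among them Hcrt (orexin) and Pmch (melanin-concentrating hormone), lay between 126 and 273 in hypothalamus and between 0.676 and 1.53 in cortex. That of 10 cortex markers lay between 58.2 and 77.7 in cortex and between 2.77 and 6.94 in hypothalamus. Other lists were less clean. Hypothalamus blocks also had sums of 25.7 to 58.8 for 7 thalamus markers, against 5.44 to 8.91 in cortex. Their sums for 8 striatum markers were 33.3 to 58.5. The sums of 6 tanycyte genes were higher in cortex (37 to 55.2) than in hypothalamus (8.16 to 18.4). Blocks of 3 mice stood apart. WT mouse 3 had the lowest WT hypothalamus sums for arcuate (32.5) and paraventricular genes (101) and the highest striatum sum of all cortex arrays (163). WT mouse 8 had a hypothalamus pituitary sum of 753, against at most 44.3 (Per3 5/5 mouse 8) on any other hypothalamus array. Per3 5/5 mouse 7 had the lowest arcuate sum (20.6). Because blocks hold many cell types, fewer cells of a kind and less RNA per cell cannot be told apart.

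The tested members were higher in hypothalamus than in cortex. All 9 member probes were called higher in WT mice, beside 31.8% of 31228 probes, and in Per3 4/4 mice, beside 31.1% (limma on the difference of the 2 tissues of each mouse, Benjamini-Hochberg adjusted). In Per3 5/5 mice, given as a description, all 9 were past the same threshold, beside 29.4% of probes. Only 3 of the 9 (Nr5a1, Six3 and the first Lhx8 probe) passed the detection filter in cortex. The other 6 entered through the hypothalamus alone, which fixes their direction. These counts, and any adjusted p given below for the tissue difference of those 6, describe the set and support nothing.

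Fezf1, Nr0b1, Six6 and Sim1 were not well above background on any cortex array. Fezf1, a gene of the ventromedial nucleus, was well above background on all 24 hypothalamus arrays, and its level in WT hypothalamus was 0.39 ± 0.35 (SD, n = 8). Where a probe was not well above background on any cortex array, only a bound can be given, the hypothalamus mean over the higher of the dimmest detected signal and the probe's own value on each cortex array. WT hypothalamus was at least 152-fold higher for Fezf1, at least 41.5-fold for Nr0b1, at least 17.4-fold for Six6 and at least 10.9-fold for Sim1. In Per3 4/4 mice the bounds were 85.4-fold, 18.2-fold, 7.84-fold and 2.8-fold, in the same order of genes. All 8 mice of each genotype showed the direction for these 4 genes. The bounds apply to the main processing. Under other processing, WT log2 differences were as low as 4.34 for Fezf1, 2.66 for Nr0b1, 1.9 for Six6 and 1.63 for Sim1. In Per3 4/4 mice they were as low as 3.06, 1.33, 0.78 and 0.26, in the same order of genes. All of these lie below their bounds. The 0.26 of Sim1, with normexp background correction, was no longer called (adjusted p = 0.239).

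The other members were also measured in cortex on some arrays. Nkx2-1 was well above background on 5 of 24 cortex arrays, 2 of them WT. Its WT hypothalamus mean of -0.83 was above its cortex mean of -7.65 in 8 of 8 mice, a difference of 6.82 (SE 0.48, adjusted p = 7.59e-12). That difference rests on 6 cortex arrays at background and was 3.34 with normexp background correction (adjusted p = 1.01e-13). Six3 was higher by 2.47 (SE 0.53, adjusted p = 0.000265, 7 of 8 mice). Nr5a1, a gene best known from the ventromedial nucleus, was well above background on all 24 cortex arrays and differed least between the tissues, by 1.12 (SE 0.17, adjusted p = 4.54e-06, 8 of 8 mice).

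Lhx8 separated the tissues less firmly in WT mice. Its first probe (A_51_P298615) was higher in WT hypothalamus by 2.66 (SE 0.98, adjusted p = 0.0221) and the second (A_52_P508827) by 2.1 (SE 0.74, adjusted p = 0.0169), in 7 of 8 mice each, the exception being WT mouse 3. With a scan day block the differences were 1.93 (adjusted p = 0.15) and 1.56 (adjusted p = 0.119), and without WT mouse 6 they were 2.35 (adjusted p = 0.0613) and 1.73 (adjusted p = 0.0616). The first probe also lost its call without WT mouse 1 (2.39, adjusted p = 0.0578), 4 (2.07, adjusted p = 0.0848) or 5 (2.35, adjusted p = 0.0597). With normexp background correction they were 1.12 (adjusted p = 0.0654) and 0.28 (adjusted p = 0.44). In Per3 4/4 mice they were 5.22 (adjusted p = 6.16e-05) and 3.24 (adjusted p = 0.000547), and with normexp 1.72 (adjusted p = 0.00554) and 0.38 (adjusted p = 0.244).

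**Figure D1:**
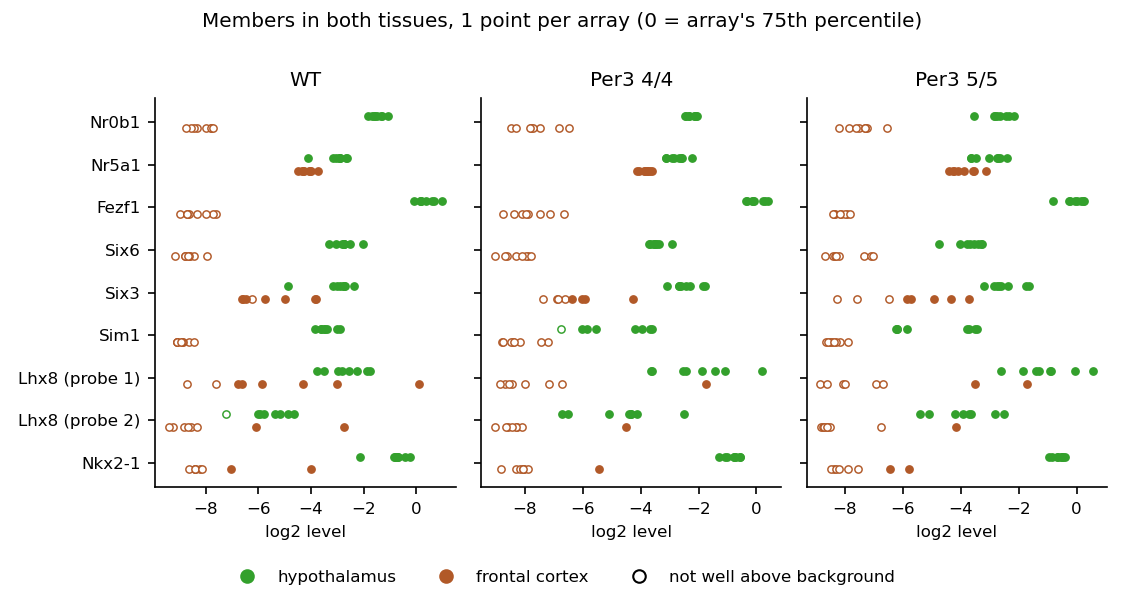
Log2 level (x axis, 0 is the 75th percentile of the array) of 9 member probes in hypothalamus (green) and frontal cortex (brown), 1 point per array, 8 mice per genotype and panel, with open points for spots not well above background. Nr0b1, Fezf1, Six6 and Sim1 are open in all cortex arrays, Nr5a1 is filled in all 24, and WT Lhx8 and Six3 overlap between the tissues.

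In the hypothalamus, 3 of the 9 member probes (Nr0b1, Six6 and Sim1) fell and none rose in Per3 4/4 compared with WT mice, beside 6.81% of 30735 probes called lower, 8.24% called higher and 15.1% in either direction (limma over the 3 genotypes, Benjamini-Hochberg adjusted over all probes). The members' median log2 difference was -0.02, against 0.02 over all probes. This comparison was not used to choose the genes but shares its 8 WT arrays with the one that was, so it is no independent support. Set against WT, Per3 5/5 mice had 4 probes (Nr0b1, Six6, Sim1 and Fezf1) lower and 2 (both of Lhx8) higher at the same threshold, beside 8.55% of probes lower, 10.3% higher and 18.8% in all. No member differed between the KI genotypes at that threshold, and neither did any other probe (0% of 30735, also by the methods' t-test). The paper's methods also allowed calls by rank product, which was not run here. By its rules the paper reported transcripts that differed between these genotypes in both tissues. At an unadjusted p under 0.05, 4983 probes (16.2%) differed between the KI genotypes.

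**Figure D2:**
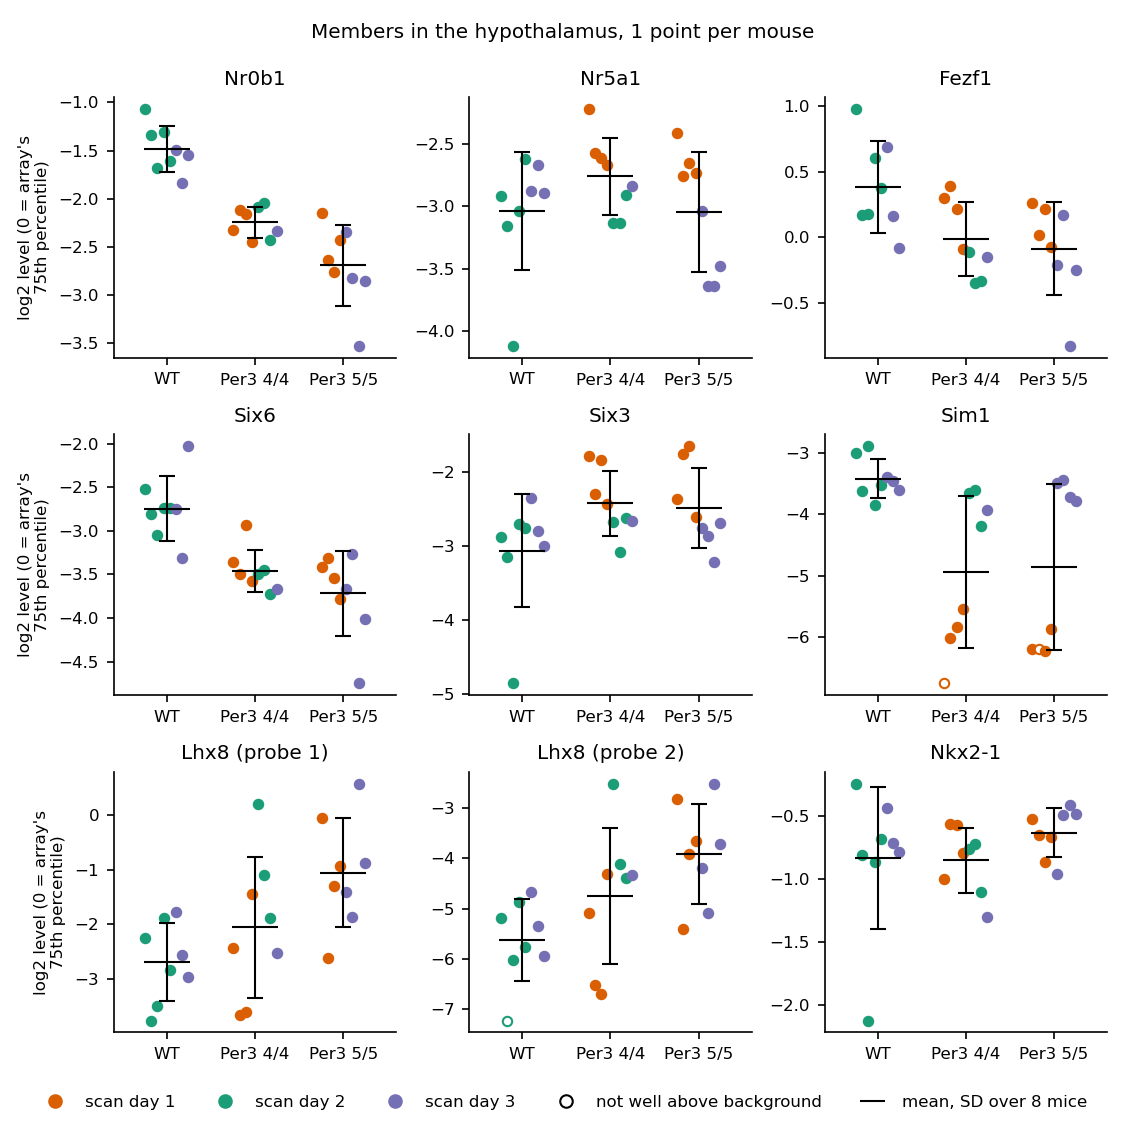
Log2 level of 9 member probes in hypothalamus by genotype (y axis, 0 is the 75th percentile of the array), 1 point per mouse coloured by scan day, open where not well above background, with the mean and SD of 8 mice. Nr0b1 of both KI genotypes lies below all WT mice, and Sim1 is low in the 8 KI mice of scan day 1.

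Nr0b1, the repressor of Nr5a1, was the only member whose KI and WT mice did not overlap in either KI genotype. Its hypothalamus level ran from -1.84 to -1.07 in WT (median -1.52), -2.45 to -2.04 in Per3 4/4 (median -2.24) and -3.53 to -2.15 in Per3 5/5 mice (median -2.7). All 16 KI mice were therefore below all 8 WT mice. Of all probes, 0.869% were lower without overlap in Per3 4/4 and 1.1% in Per3 5/5. The log2 difference from WT was -0.76 (SE 0.14, adjusted p = 0.00542) in Per3 4/4 and -1.21 (SE 0.14) in Per3 5/5. Between the KI genotypes it was -0.45 (SE 0.14), and their ranges overlapped.

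The difference in Nr0b1 had the same size within scan days. With a scan day block it was -0.83 (adjusted p = 0.025) in Per3 4/4 and -1.18 in Per3 5/5. On day 2 alone, the 3 Per3 4/4 mice (-2.43 to -2.04) were below the 5 WT mice (-1.68 to -1.07) with a difference of -0.78 (adjusted p = 0.55), beside 4.51% of probes lower without overlap. On day 3 alone, the 4 Per3 5/5 mice (-3.53 to -2.35) were below the 3 WT mice (-1.84 to -1.49) by 1.26, beside 8.11% of probes. Without the pituitary-rich WT mouse 8, the Per3 4/4 difference was -0.77 (adjusted p = 0.0112), and without WT mouse 3 it was -0.79 (adjusted p = 0.00643). With slide as a fixed block, under which no probe of the array passed, it was -0.67 (adjusted p = 0.698). That block compares Per3 4/4 with WT through slides 4 and 6 alone. Slide and genotype are largely confounded, within scan days too, and their parts cannot be told apart.

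Nr5a1 itself showed no such separation. Its level ran from -4.12 to -2.62 in WT, -3.13 to -2.22 in Per3 4/4 and -3.64 to -2.41 in Per3 5/5 mice, and the 3 ranges overlapped. The Per3 4/4 difference of 0.28 (SE 0.21, adjusted p = 0.349) was -0.06 with a scan day block. That of Per3 5/5 was -0.01 (SE 0.21), against -0.64 within day 3. On that day the 4 Per3 5/5 mice were below the 3 WT mice, beside 8.11% of probes lower without overlap. The lowest of all 24 arrays was WT mouse 3.

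Fezf1 was well above background in every hypothalamus, with ranges of -0.08 to 0.98 (median 0.28) in WT, -0.35 to 0.39 (median -0.1) in Per3 4/4 and -0.83 to 0.26 (median -0.03) in Per3 5/5 mice. The groups overlapped. The difference from WT was -0.4 (SE 0.16, adjusted p = 0.0871) in Per3 4/4 and -0.47 (SE 0.16) in Per3 5/5. With a scan day block these were -0.6 (adjusted p = 0.068) and -0.64. On day 2 alone the Per3 4/4 mice (-0.35 to -0.11) did not overlap the WT mice (0.17 to 0.98), beside 4.51% of probes lower without overlap.

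Six6, a factor of the suprachiasmatic nucleus, moved with Nr0b1. Its level ran from -3.31 to -2.03 in WT (median -2.74), -3.72 to -2.93 in Per3 4/4 (median -3.5) and -4.75 to -3.26 in Per3 5/5 mice (median -3.6). Single WT and KI mice overlapped in both comparisons. The difference from WT was -0.72 (SE 0.18, adjusted p = 0.0168) in Per3 4/4 and -0.97 (SE 0.18) in Per3 5/5, and with a scan day block -0.88 (adjusted p = 0.0433) and -1.13. On day 2 alone the Per3 4/4 mice (-3.72 to -3.45) lay below the WT mice (-3.05 to -2.52), by 0.78 on the log2 scale (adjusted p = 0.469). Of all probes, 4.51% were lower without overlap on that day.

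The highest Six6 level of any mouse was in the block of WT mouse 8 that was rich in pituitary transcripts, whose part in that level was not tested. Gh (growth hormone) was at 8.09 and Prl (prolactin) at 7.89 in that block, against medians of -4.87 and -3.7 in WT hypothalamus. Without that mouse the Per3 4/4 difference in Six6 was -0.62 (adjusted p = 0.0313) and the Per3 5/5 difference -0.87. The lowest Six6 level was in Per3 5/5 mouse 7, without which the Per3 5/5 difference was -0.82. The Per3 4/4 call of Six6 was lost with normexp background correction, where the difference was -0.27 (adjusted p = 0.183), and with slide as a fixed block (-0.84, adjusted p = 0.698).

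Six3, its relative, did not share the direction of Six6. It ran from -4.86 to -2.35 in WT, -3.08 to -1.78 in Per3 4/4 and -3.21 to -1.65 in Per3 5/5 mice, with overlap throughout. Its difference from WT was 0.64 (SE 0.28, adjusted p = 0.116) in Per3 4/4 and 0.58 (SE 0.28) in Per3 5/5. The lowest value was again WT mouse 3.

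Sim1, a factor of neurosecretory neurons, was low on scan day 1 in both KI genotypes. In WT mice it ran from -3.86 to -2.9, while Per3 4/4 mice spread from -6.75 to -3.61 and Per3 5/5 mice from -6.22 to -3.45. On scan day 1, which held no WT mice, the mean was -6.04 in Per3 4/4 and -6.12 in Per3 5/5. On the later days it was -3.82 (day 2, 3 mice) and -3.94 (day 3, 1 mouse) in Per3 4/4, -3.61 in Per3 5/5 (day 3), and -3.38 and -3.49 in WT.

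The Per3 4/4 difference of -1.52 (SE 0.5, adjusted p = 0.0444) was -0.35 (adjusted p = 0.277) with a scan day block and -0.44 (adjusted p = 0.559) on day 2 alone, and it lost its call in 12 of 16 fits that left out 1 mouse. The Per3 5/5 difference of -1.45 (SE 0.5) was -0.26 with the block and -0.13 on day 3 alone. Otp, its partner in neurosecretory neurons, was well above background on 1 of 48 arrays, the hypothalamus of Per3 5/5 mouse 5 (-3.83), so its level in the other arrays has no order.

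**Figure D3:**
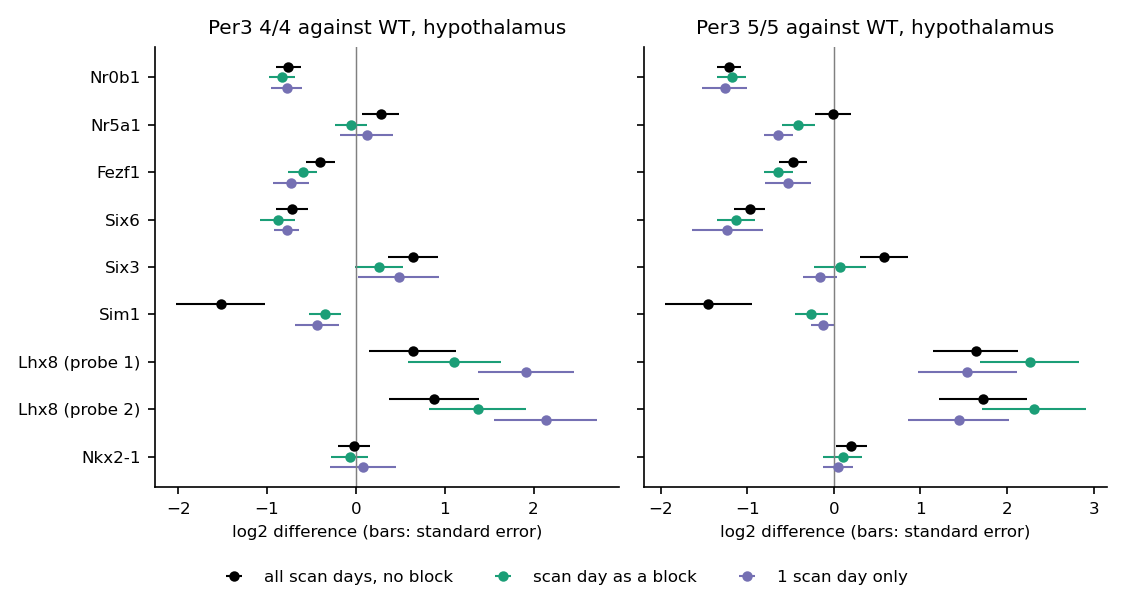
Log2 difference from WT with its standard error (x axis) for 9 member probes in hypothalamus, for all scan days without a block (black), with a scan day block (green) and within the single scan day that held at least 3 mice of both genotypes (violet, day 2 for Per3 4/4 and day 3 for Per3 5/5). Nr0b1 and Six6 keep their size, while Sim1 moves from -1.52 and -1.45 to between -0.44 and -0.13.

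Lhx8, the factor of forebrain cholinergic neurons, was the member that was higher than WT in Per3 5/5 hypothalamus. Its first probe ran from -3.76 to -1.77 in WT (median -2.7), -3.65 to 0.2 in Per3 4/4 (median -2.16) and -2.61 to 0.58 in Per3 5/5 mice (median -1.11). The second ran from -7.23 to -4.66, -6.7 to -2.51 and -5.4 to -2.52, in the same order of groups. Groups overlapped for both probes, and 1 WT mouse was not well above background for the second. The probes moved together, with r = 0.95 across the 24 arrays, which share their RNA and are 2 readings of 1 gene.

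The Lhx8 difference from WT was 1.64 (SE 0.49) and 1.72 (SE 0.51) in Per3 5/5 mice and 0.64 (SE 0.49, adjusted p = 0.366) and 0.88 (SE 0.51, adjusted p = 0.227) in Per3 4/4 mice. With a scan day block these were 2.26, 2.31, 1.11 (adjusted p = 0.243) and 1.37 (adjusted p = 0.176). On day 2 alone the Per3 4/4 mice (-1.88 to 0.2) did not overlap the WT mice (-3.76 to -1.89) for the first probe, nor for the second, beside 4.2% of probes higher without overlap. The KI genotypes differed by 1 (SE 0.49) and 0.83 (SE 0.51). Per3 5/5 mouse 7 had the highest level of the first probe and the lowest levels of Nr0b1, Six6 and Fezf1, and without it the Per3 5/5 differences of Lhx8 were 1.4 and 1.52. Without WT mice 3 and 8, left out after seeing the data, they were 1.45 and 1.6 and no longer past the threshold.

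Nkx2-1, which acts upstream in the same ventral forebrain lineage, hardly differed between genotypes. It ran from -2.12 to -0.24 in WT, -1.3 to -0.56 in Per3 4/4 and -0.96 to -0.41 in Per3 5/5 mice, and WT mouse 3 was again the lowest. The difference from WT was -0.02 (SE 0.18, adjusted p = 0.947) in Per3 4/4 and 0.2 (SE 0.18) in Per3 5/5. Its probe was printed on 10 spots, whose SD within an array had a median of 0.06 in hypothalamus and 0.34 in cortex.

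In the cortex none of the 3 tested member probes differed between genotypes, beside 12.4% of 29715 probes called in Per3 5/5 and 22.5% in Per3 4/4 compared with WT mice, and 0% between the KI genotypes. At an unadjusted p under 0.05, the members past it were 0 of 3 in Per3 5/5, 1 of 3 (Nr5a1) in Per3 4/4 and 0 of 3 between the KI genotypes. For Lhx8 the differences from WT were -1.2 in Per3 5/5 (adjusted p = 0.518) and -1.92 in Per3 4/4 (adjusted p = 0.269), each with an SE of 1.23. For Six3 they were -0.33 (adjusted p = 0.735) and -0.75 (adjusted p = 0.384), with an SE of 0.59. For Nr5a1 they were 0.27 (adjusted p = 0.231) and 0.32 (adjusted p = 0.123), with an SE of 0.15, and the Per3 4/4 value passed the threshold in a fit of those 2 genotypes alone (adjusted p = 0.0292).

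The level of Lhx8 in cortex moved with that of striatal transcripts, which differed between blocks. The part of striatal tissue in the Lhx8 and Nkx2-1 levels was not tested. The first Lhx8 probe was well above background on 9 of 24 cortex arrays, whose summed level of 8 striatum markers (among them Drd1, Drd2 and Ppp1r1b) ran from 30.1 to 163, against 20.1 to 35.2 on the other 15. Its cortex level reached 0.1 in WT mouse 3, -1.71 in Per3 5/5 mouse 4 and -1.74 in Per3 4/4 mouse 2, with striatum sums of 163, 67.8 and 75.6. Nkx2-1 was well above background on the 5 cortex arrays with sums from 59.2 to 163 and on none of the 19 with sums from 20.1 to 55.9. Without the 5 cortex arrays of the highest striatum sums, left out after seeing the data, the Lhx8 differences from WT in cortex were -1.21 (SE 0.59, adjusted p = 0.23) in Per3 5/5 and -1.41 (SE 0.57, adjusted p = 0.0942) in Per3 4/4. Those arrays also hold the 5 highest Lhx8 levels, so a smaller error follows from leaving them out.

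**Figure D4:**
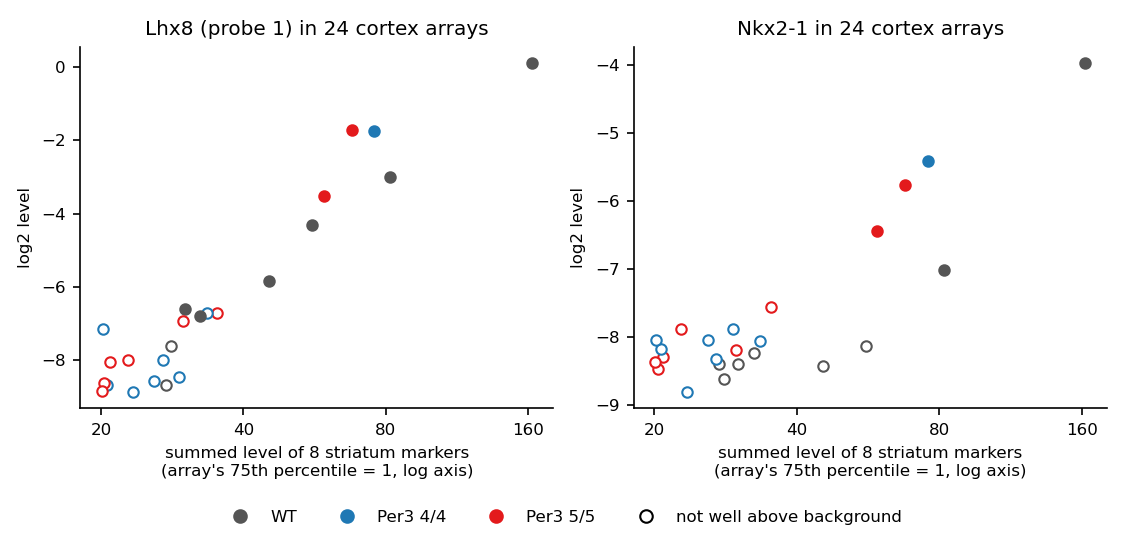
Log2 level of Lhx8 (first probe, left) and Nkx2-1 (right) on the 24 cortex arrays (y axis) against the summed linear level of 8 striatum markers (x axis, log scale), coloured by genotype and open where not well above background. The 4 arrays with sums of 67.8 and above measured both genes, and WT mouse 3 (163) is highest in both.

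Whether a genotype difference was unequal in the 2 tissues was tested on the differences per mouse. None of the 9 member probes passed for Per3 4/4 against WT, beside 0.0032% of 31228 probes. At an unadjusted p under 0.05, 4 members (Nr0b1, Sim1, Six6 and Fezf1) passed, beside 5% of probes. The same limma fit gave adjusted p of 0.797 for Nr0b1, 0.784 for Sim1 and 0.925 for Six6 and Fezf1. The difference of differences was -1.32 (SE 0.31) for Nr0b1, -2.2 (SE 0.51) for Sim1 and -1.05 (SE 0.33) for Six6, all of them with cortex signals not well above background. Part of each size comes from those cortex values (for Nr0b1, means of -7.61 in Per3 4/4 and -8.17 in WT), which have no order. With normexp background correction these 3 and Fezf1 passed in that fit. Their values were -1.33 for Nr0b1 (adjusted p = 6.81e-05), -1.11 for Six6 (adjusted p = 0.00345), -1.37 for Sim1 (adjusted p = 0.0167) and -1.29 for Fezf1 (adjusted p = 0.025). These 4 genes were not well above background on any cortex array and entered through the hypothalamus alone. Their genotype difference in cortex cannot be measured, so neither the counts nor the adjusted p support a difference between tissues.

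Other transcription factors of the hypothalamus were followed through a list of 34 genes, of which 31 were tested. In Per3 4/4 compared with WT hypothalamus 6 fell and 2 rose, beside 6.81% of all probes lower and 8.24% higher. The list's median difference was -0.03, against 0.02 over all probes. Those that fell were the nuclear receptors Nr2f1 (-1.61, SE 0.54, adjusted p = 0.0455) and Nr2f2 (-0.44, adjusted p = 0.0139), the LIM factors Isl1 (-0.52, adjusted p = 0.0368) and Lhx2 (-0.4, adjusted p = 0.0165), Dlx2 (-0.5, adjusted p = 0.0155) of GABAergic neurons, and Tbx3 (-0.44, adjusted p = 0.032) of the arcuate nucleus. Foxd2 (0.56, adjusted p = 0.0271) and Onecut2 (0.36, adjusted p = 0.0229) rose. In Per3 5/5 mice 4 were lower (Isl1 -0.54, Lhx2 -0.41, Tbx3 -0.4 and Dlx2 -0.38) and 3 higher (Onecut2 and Lhx1 0.4, Sim2 0.34) at the same threshold. Of all probes, 8.55% were lower and 10.3% higher in Per3 5/5. The 2 comparisons share the WT arrays. Of the 31, 25 rose and 5 fell in WT hypothalamus compared with cortex, led by Foxb1 (9.05), a factor of the mammillary bodies. Between the WT tissues, 31.8% of all probes were higher and 27.7% lower in hypothalamus.

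Genes of basal forebrain cholinergic and septal neurons gave a mixed picture. Of 14 tested, 2 rose in Per3 4/4 hypothalamus, the neurotrophin receptor Ngfr (0.75, SE 0.22, adjusted p = 0.0254) and acetylcholinesterase Ache (0.6, SE 0.2, adjusted p = 0.0452), and Zic4 fell (-0.52, SE 0.16, adjusted p = 0.0321). In Per3 5/5 mice Ache (0.73, SE 0.2) and Ngfr (0.73, SE 0.22) were higher at the same threshold, and no gene of the list was lower. These counts stand beside 15.1% of all probes called in Per3 4/4 and 18.8% in Per3 5/5.

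Markers of other structures moved in the same comparisons, in which 15.1% of all probes were called in Per3 4/4 and 18.8% in Per3 5/5. All 6 oligodendrocyte genes rose in Per3 4/4 hypothalamus, with a summed level of 231 to 324 against 173 to 255 in WT mice, and 3 of 6 were higher in Per3 5/5. Of 8 striatum markers 2 rose in Per3 4/4 (Ppp1r1b 0.95, adjusted p = 0.00727, and Drd2 0.46, adjusted p = 0.0163) and the same 2 were higher in Per3 5/5 (0.8 and 0.43). Of the pituitary markers, 0 of 8 differed in Per3 4/4 and 2 were lower in Per3 5/5, Tshb (-3.07) and Pitx1 (-1.64). Of the choroid plexus markers, Aqp1 fell in Per3 4/4 (-0.91, adjusted p = 0.0358), and Ttr (-1.73), Aqp1 (-1.12) and Kcne2 (-0.8) were lower in Per3 5/5. Their part in the member differences was not tested. None of the 8 arcuate, 6 ventromedial, 4 paraventricular, 6 suprachiasmatic or 6 tanycyte genes tested passed in Per3 4/4, and Hcrt rose (0.7, adjusted p = 0.0131). In Per3 5/5 the suprachiasmatic peptide gene Grp (-0.46) and the tanycyte gene Vim (-0.48) were lower and no arcuate, ventromedial or paraventricular gene was called. Of 10 cortex markers, Bcl11b rose in Per3 4/4 (0.47, adjusted p = 0.0375) and Tbr1 (1.12) and Cux2 (0.57) were higher in Per3 5/5. None of the 7 thalamus or 3 blood markers was called in either.

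Members also varied between mice of 1 genotype. After genotype and scan day means were removed, 5 of 28 pairs of member genes were correlated over the 24 hypothalamus arrays (permutation test of Pearson's r, 100000 draws, two-sided, adjusted over the 28), and none by Spearman's rho. Nr0b1 went with Six6 (r = 0.61, permutation p = 0.0019, adjusted p = 0.0266, rho = 0.56, permutation p = 0.00499, adjusted p = 0.14) and with Fezf1 (r = 0.55, permutation p = 0.00492, adjusted p = 0.0459, rho = 0.5, adjusted p = 0.141). Without the 2 arrays farthest from the median of Nr0b1, r was 0.41 and 0.32, and without Per3 5/5 mouse 7 alone no pair passed (r = 0.37 for both). Six3 went with Nr5a1 (r = 0.74, permutation p = 0.00079, adjusted p = 0.0221, rho = 0.49, adjusted p = 0.141), with r = 0.44 without the 2 farthest arrays, and without WT mouse 3 no pair passed. Sim1 ran against Six3 (r = -0.53, permutation p = 0.00752, adjusted p = 0.047, rho = -0.43) and Nr5a1 (r = -0.52, permutation p = 0.0084, adjusted p = 0.047, rho = -0.43), with r of -0.39 and -0.52 without the 2 farthest arrays. Without Per3 5/5 mouse 7 the r of these 3 pairs was 0.73, -0.54 and -0.54, with adjusted p of 0.0512, 0.0645 and 0.0645 by the same permutation test. With normexp background correction the sign of both Sim1 pairs reversed. By that test r was then 0.21 with Six3 (adjusted p = 0.451) and 0.49 with Nr5a1 (adjusted p = 0.0736).

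Lhx8 tracked part of its cholinergic list across the same 24 arrays. Of 14 relations computed, those given here passed by Pearson's r and by Spearman's rho, each adjusted over the 14. They were with Slc5a7, the choline transporter (r = 0.82, permutation p = 1e-05, the smallest the draws can give, adjusted p = 0.00014, rho = 0.74, adjusted p = 0.00063), Lhx6, a factor of neurons from the medial ganglionic eminence (r = 0.8, adjusted p = 0.00014, rho = 0.83, adjusted p = 0.00028) and Ngfr (r = 0.61, adjusted p = 0.00651, rho = 0.56, adjusted p = 0.0176). Without the 2 arrays farthest from the median of Lhx8, r was 0.75, 0.74 and 0.58. Without WT mouse 3, r was 0.83 for Slc5a7 and 0.91 for Lhx6. Within single genotypes, as a description over 8 mice each, Slc5a7 had an r with Lhx8 of 0.94 (Per3 4/4), 0.95 (Per3 5/5) and 0.11 (WT), and Lhx6 one of 0.97, 0.88 and 0.26. The spread of Lhx8 was smallest in WT mice (SD 0.72, against 1.29 in Per3 4/4 and 1 in Per3 5/5), and whether r differed between genotypes was not tested. Chat, the enzyme that makes acetylcholine, did not pass (r = 0.29, adjusted p = 0.291), nor did Slc18a3, which loads it into vesicles (r = 0.27, adjusted p = 0.291).

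**Figure D5:**
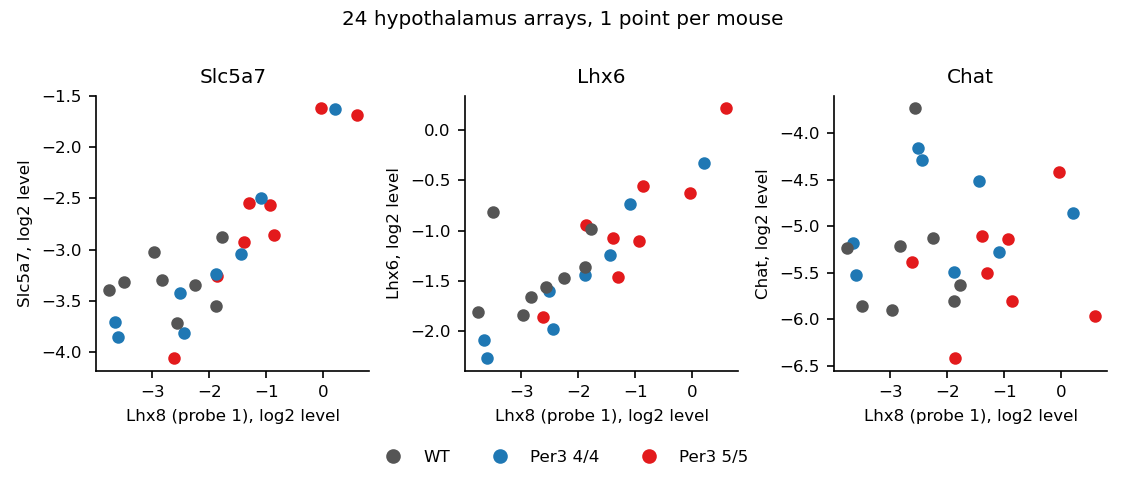
Log2 levels of Slc5a7, Lhx6 and Chat (y axes) against Lhx8 (first probe, x axis) on the 24 hypothalamus arrays, 1 point per mouse coloured by genotype, before genotype and scan day means were removed. Slc5a7 and Lhx6 climb with Lhx8 in both KI genotypes (r of 0.88 to 0.97). In WT mice, whose Lhx8 spread was smallest and whose highest Lhx6 was in mouse 3 (-0.81), r was 0.11 and 0.26. Whether r differed between genotypes was not tested. Chat shows no clear order.

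Over all 15837 named genes, Slc5a7 (r = 0.82), 3110021A11Rik (0.81) and Lhx6 (0.8) were also the genes most like Lhx8 in these residuals, which is the same measurement and not further evidence. The genes most like Nr0b1 were Brinp3 (0.81), Ptger2 (0.81) and 2810004N23Rik (0.79), and those most like Six6 were Ascc3 (0.81), Slc35f5 (0.76) and Tram1 (0.74). For Fezf1 they were Aldh3b2 (0.82), D930028M14Rik and Cngb1 (0.76 each), and for Sim1 Lmtk2 (0.89), Rrm2b (0.86) and Nexmif (0.81). Six3 (Eri3 0.96, Slitrk5 and Ctxn1 0.95), Nkx2-1 (Cdc14b 0.93, Ttc9c and Nol6 0.92) and Nr5a1 (Kcna3, Ogdhl and Vps72 0.92) had the closest partners, with r of 0.8 to 0.9 without WT mouse 3.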

How the data were processed

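RNA from both tissue blocks of 24 mice was labelled with Cy3 and hybridised to Agilent 4x44K mouse arrays. The authors deposited Feature Extraction scanner output, which holds a linear processed signal intensity for each spot after background correction, with detection and outlier calls. They also deposited a series table of log2 values shifted to the 75th percentile of each array, whose values are centred by probe (100% of probes have a median within 0.01 of 0 in hypothalamus, 86% in cortex; lowest r 0.939 per array, median 0.996, column medians -0.104 to 0.0917) and were used only as an alternative. Scale and direction were thus settled from the scanner files.

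Processed signals were averaged over spots of a probe without outlier flags (48 to 172 flagged spots per array, none saturated), divided by the 75th percentile of the array and taken to log2. Probes were named through RefSeq accessions (67.2% of 41174 probes, 18883 genes). A probe was tested where at least 6 of 8 arrays of a genotype were well above background. Genotypes were compared within a tissue with limma (version 3.58.1, R version 4.3.3) over 24 arrays, and tissues on the difference of each mouse, with Benjamini-Hochberg adjustment over all tested probes and a threshold of 0.05. Precision was limited by 8 mice per group, since arrays carry no count depth. The scripts were tested on simulated data. Alternatives changed the background correction, scaling, filters, blocks for scan day, slide and replicate number, the samples in the fit and single mice. The replicate numbers in the labels were not taken as pairs, since in no comparison did every same-numbered pair correlate above 0.1. In hypothalamus r ran from -0.2 to 0.12 for Per3 4/4 and WT, 0.03 to 0.34 for Per3 5/5 and WT, and -0.04 to 0.52 for the KI genotypes, whose first 4 numbers share slides.

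The members and gene lists were chosen with earlier results of these data known. The result of 1 gene of the basal forebrain list is not reported here. Named genes are the members, list genes called in a counted comparison (at most 6 per list) and the 3 genes most correlated with each member.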

Additional observations from a re-analysis of the deposited data

Results flagged for a closer look

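Of 60 groups of 8 arrays (10 member probes in 6 groups), 13 held 1 array farther from the other 7 than Dixon's critical value for 8 samples allows, where chance gives about 3. No cause was tested.

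In hypothalamus, WT mouse 3 was far below the other WT mice for Six3 (-4.86), Nr5a1 (-4.12) and Nkx2-1 (-2.12). Per3 5/5 mouse 7 was far below its group for Fezf1 (-0.83), and Per3 4/4 mouse 3 above its group for Six6 (-2.93). Otp was high in Per3 5/5 mouse 5 (-3.83) and, though not well above background, in Per3 4/4 mouse 6 (-5.55).

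In cortex, Per3 4/4 mouse 2 stood above its group for both Lhx8 probes (-1.74 and -4.49), Nkx2-1 (-5.42) and Six3 (-4.26). Per3 5/5 mouse 4 did so for the second Lhx8 probe (-4.16) and WT mouse 3 for Nkx2-1 (-3.98). These cortex arrays are 3 of the 4 with the highest striatum sums.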

How the results depend on the processing

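The tissue difference passed for at least 7 of 9 member probes in each genotype under every alternative run. Most of these probes entered through the hypothalamus alone, which fixes their direction, so that count only describes the set. No alternative gave a member difference between the KI genotypes. Counts of members that differed from WT depended on the setting. With normexp background correction, 3 passed in Per3 5/5 hypothalamus, 1 in Per3 4/4 hypothalamus and 2 in Per3 4/4 cortex. In the Per3 4/4 comparison of tissues 4 passed, none of them measured in cortex, so that count supports no tissue difference. With slide as a fixed block, and on 1 scan day alone, 0 passed in either hypothalamus comparison, where at most 5 of all probes did. Per3 4/4 cortex had 1 call (Nr5a1) by the methods' t-test and with 2 genotypes in the fit, and 1 without the detection filter, of a probe that the filter leaves out. Without WT mice 3 and 8, an alternative chosen after seeing the data, 3 passed in Per3 5/5 hypothalamus and none of them was Lhx8. Correlated pairs numbered 10 with genotype means alone removed, 0 by Spearman's rho and 3 after quantile normalization.

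Leaving out 1 mouse at a time gave 4 to 6 members in Per3 5/5 hypothalamus, 2 to 3 in Per3 4/4 hypothalamus, 7 to 9 in the WT tissue comparison and 0 to 6 correlated pairs, and all other counts stayed as given. With the replicate number as a block, 4 members passed in Per3 4/4 hypothalamus (Fezf1 -0.4, adjusted p = 0.0388) and 6 in Per3 5/5 hypothalamus. The block changed no other count. The tissue comparison without the replicate block, treating arrays as independent, called 9 members in each genotype.

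Differences that were not called, and the correlations of Sim1 that were, changed sign as follows. In Per3 5/5 hypothalamus, given as a description, alternatives spanned -0.42 to 0.21 (Nkx2-1) and -0.16 to 0.58 (Six3) against WT. Between the KI genotypes in hypothalamus they spanned -0.11 to 0.08 (Sim1) and -0.09 to 0.09 (Fezf1). Leaving out 1 mouse gave Nr5a1 of -0.16 to 0.08 against WT there. Between the KI genotypes it gave Six3 of -0.19 to 0.04, Sim1 of -0.18 to 0.27 and Fezf1 of -0.12 to 0.04. The cause was not tested. With normexp, Six3 in cortex was 0.29 (Per3 5/5 against WT), 0.49 (Per3 4/4 against WT, adjusted p = 0.0304) and -0.2 (between KI genotypes), Lhx8 in cortex -0.13 (between KI genotypes), Nkx2-1 0.01 in Per3 4/4 hypothalamus and -0.67 between tissues, and the correlations of Sim1 were 0.21 with Six3 and 0.49 with Nr5a1. In the authors' table, where 16 of 24 cortex arrays have a value, Six3 in Per3 5/5 cortex was 0.52. With a scan day block, Nr5a1 was 0.02 between KI genotypes in cortex and -0.06 in Per3 4/4 hypothalamus. With slide as a fixed block, Six3 was 0.06 in Per3 4/4 cortex and -0.1 in Per3 4/4 hypothalamus, Nr5a1 -0.23 in Per3 4/4 hypothalamus, and between KI genotypes in cortex Lhx8 was -0.42, Nr5a1 0.02 and Six3 -0.51. On 1 scan day those last 3 were -0.42, 0.02 and -0.51, Six3 in Per3 5/5 cortex was 0.3 and Nkx2-1 in Per3 4/4 hypothalamus 0.08. Without the arrays that stood apart, Nkx2-1 between tissues was -0.51. Leaving out 1 mouse gave Nr5a1 of -0.16 to 0.02 between KI genotypes in cortex, Six3 of -0.63 to 0.02 in Per3 5/5 cortex, Nkx2-1 of -0.21 to 0.06 in Per3 4/4 hypothalamus, and between tissues Nr5a1 of -0.18 to 0.06 and Nkx2-1 of -0.54 to 0.48.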
